A study of Mus musculus with 6 samples.

Results

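The genes described here are the lysosomal hydrolases, the proteins of the lysosomal membrane, the vacuolar proton pump (V-ATPase) and the receptors that carry enzymes to the lysosome. A set of 51 mouse genes was listed by symbol and not by a cut on the measured values, though with earlier results of these data known. A gene was read from 1 probe set, the one with the highest mean over the 6 arrays where there were several. In this way 49 of the 51 were measured, out of 22180 genes with a probe set of their own. Glb1 shared its only annotated probe set with another gene, Atp6v0c had none under its own symbol in the annotation used here, and neither is reported.

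Both groups were mice with a knockout of CREB-H (allele Creb3l3tm1.1Sad/J), 8 weeks old and fed a normal diet. One group (CREB-H below) received an adeno-associated virus carrying AAV-CREB-H-ΔTC, the active form of the transcription factor, and the control group (GFP below) received AAV-GFP, which encodes green fluorescent protein. There were 3 mice in each group, which the sample titles call biological replicates. Livers were collected 2 weeks after the intraperitoneal injection, and total RNA from each was hybridised to 1 array. The knockout and the type of virus were common to all animals, so that the comparison asks what the active factor does in a liver that lacks its own. The labels call the virus liver-targeting and do not name the promoter that drives it.

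Values are log2 signals, and a log2 difference is the CREB-H mean minus the GFP mean. The model was limma with Benjamini-Hochberg adjustment over 41345 probe sets, and "passed" means an adjusted p below 0.05. Array medians lay between 4.98 and 5.01, and log2 differences had a median standard error (SE) of 0.13 over the lysosomal genes and 0.14 over all probe sets. The number of arrays limits the precision. Creb3l3, the gene that was knocked out and supplied again, had signals of 6.73, 7.25 and 7.58 on the CREB-H arrays, against 6.55, 5.93 and 6.40 on the GFP arrays (log2 difference 0.89, SE 0.25, limma adjusted p = 0.647). The sources used here do not say which exons its probes read. The mean signal of Kdm5d, Eif2s3y and Uty, all on the Y chromosome, was 7.67 on CREB-H replicate 3 and 7.83 on GFP replicate 3, against 3.15 to 3.39 on the other 4 arrays. The labels give no sex. On the 4 arrays without this signal 31 of the 49 lysosomal differences moved by over 1.5 times. For those of the 49 genes picked by p, size or spread, such a move is stated beside the value.

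Lysosomes break down proteins, glycans and lipids in an acidic interior. Soluble hydrolases receive a mannose 6-phosphate tag in the Golgi and are carried to the lysosome by mannose 6-phosphate receptors. The V-ATPase, with a membrane sector (V0) that conducts protons and a cytosolic sector (V1) that splits ATP, makes the interior acidic, and many of these genes are controlled together by TFEB and related factors through an E-box motif known as the CLEAR element. CREB-H is a liver factor of the endoplasmic reticulum membrane, known for genes of triglyceride and lipoprotein handling. Its family binds cAMP response element (CRE)-like sequences. In liver, both hepatocytes and Kupffer cells, the resident macrophages, are rich in lysosomes.

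Promoter sequence was not used to choose the genes. Many of them were already known for the CLEAR element, so a high share of E-boxes is not an independent finding. RefSeq promoter windows of assembly GRCm38.p6, from 250 bases before to 50 after an annotated start of transcription, were found by gene identifier for 44 of the 51 genes. The E-box CACGTG was searched on both strands, together with the longer TCACGTG, which contains it, and the palindrome TCACGTGA, which contains both. The E-box was present in 19 of the 44 genes (43.2%), against 1559 of 17492 protein-coding genes (8.91%) and 2187 of all 27025 genes with a window (8.09%). TCACGTG was present in 17 (38.6%), against 874 protein-coding genes and 1160 of all genes (4.29%). The palindrome was present in 9 (20.5%), against 1.41% and 1.12%. The CRE palindrome TGACGTCA, which shares no full match with the E-box, was present in 1 of the 44, Gusb (2.27%), against 2.54% of protein-coding genes and 2.03% of all genes. A match is a description of letters and not a binding site, and the shares were not tested.

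Stretches before the start site are shown for 8 genes from every class that carry the longer motifs, to show the motif where it occurs; most of the 44 genes lack it. Each is written 5′ to 3′ on the strand of the gene in lower case, with TCACGTG or its reverse complement in capitals, merged where the palindrome holds both. A match cut by the edge of a stretch stays in lower case, as at the end of Gla and the start of Cln3. Lamp1 is included because it had the most E-boxes, 4 within 80 bases.
Ctsa: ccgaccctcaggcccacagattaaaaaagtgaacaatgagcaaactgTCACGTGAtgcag
Ctsd: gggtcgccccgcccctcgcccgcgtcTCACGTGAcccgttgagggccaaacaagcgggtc
Gla: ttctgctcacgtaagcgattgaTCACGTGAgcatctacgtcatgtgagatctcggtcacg
Mcoln1: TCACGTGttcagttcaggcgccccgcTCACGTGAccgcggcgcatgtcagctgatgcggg
Cln3: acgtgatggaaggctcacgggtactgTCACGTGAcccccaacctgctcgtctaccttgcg
Atp6v1a: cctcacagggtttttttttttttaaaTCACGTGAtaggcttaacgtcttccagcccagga
Igf2r: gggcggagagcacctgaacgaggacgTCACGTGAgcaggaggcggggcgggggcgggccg
Lamp1: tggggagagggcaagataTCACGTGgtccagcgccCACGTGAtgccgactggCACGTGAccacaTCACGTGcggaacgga
On GRCm38.p6 these lie at chr2:164833713-164833772 on the plus strand for Ctsa, chr7:142387893-142387952 on the minus strand for Ctsd and chrX:134601196-134601255 on the minus strand for Gla. Mcoln1 is at chr8:3500447-3500506 (plus), Cln3 at chr7:126583325-126583384 (minus) and Atp6v1a at chr16:44139358-44139417 (minus). Igf2r is at chr17:12769722-12769781 (minus) and Lamp1 at chr8:13159081-13159160 (plus).

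In their windows the 19 genes held 29 E-boxes. Of these 19 began within 100 bases before the start, 8 lay further upstream and 2 after the start. They occurred in every class: 5 of the 8 proteases with a window, 6 of 18 other hydrolases, 3 of 7 membrane proteins, 4 of 10 V-ATPase subunits and the 1 receptor with a window, Igf2r.

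**Figure D1:**
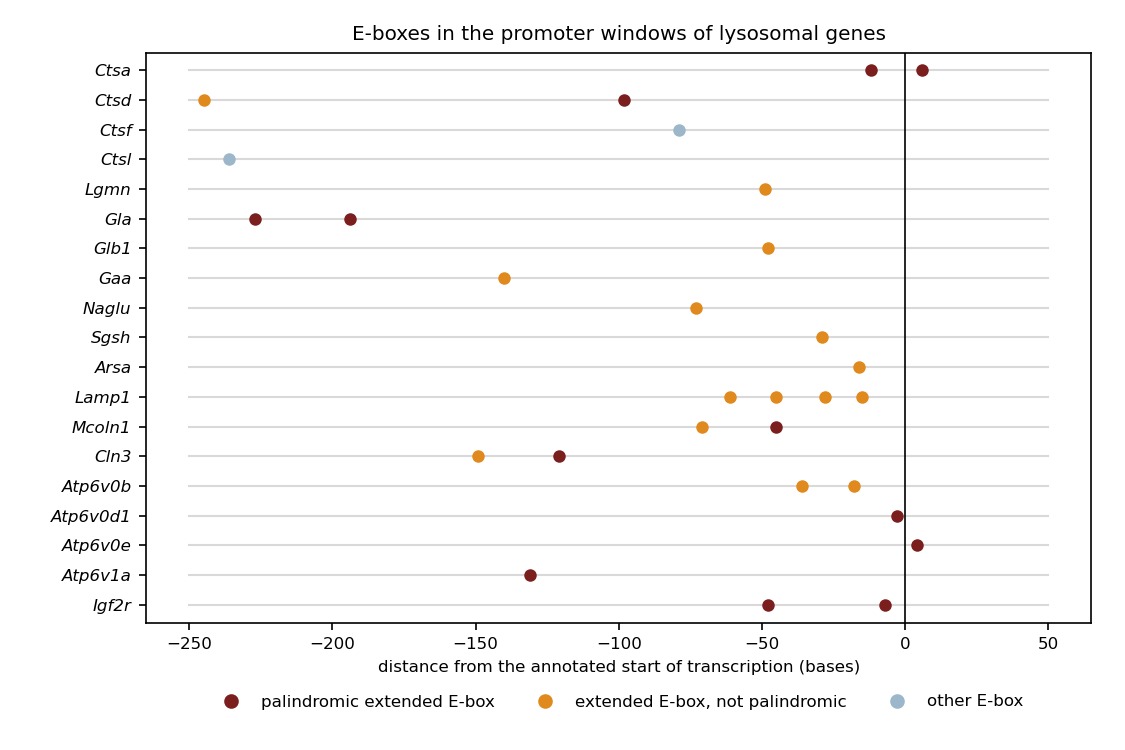
Positions of E-boxes in the promoter windows of the 19 lysosomal genes that had one. The x axis is the distance in bases of the first base of the E-box from the annotated start of transcription; colours separate the palindromic extended form, the extended form and other E-boxes, and most of the 29 points lie within 100 bases before the start.

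None of the 49 lysosomal genes passed the test between CREB-H and GFP livers. Their log2 differences ran from -0.26 to 0.43 with a median of 0.05, against a median of -0.01 over all probe sets, and the lowest adjusted p was 0.647. Over all probe sets 2 passed (0.00484%): Apoa4, an apolipoprotein of triglyceride-rich particles, and the acid-sensing channel gene Asic5. At an unadjusted p below 0.05 there were 2 lysosomal genes, Idua and Hexa, both higher, where 2.93% of all probe sets were higher and 3.97% lower by the same rule. The 95% confidence interval of the difference lay within 2-fold in either direction for 47 of the 49, the exceptions being Ctsc and Arsa, and within 1.5-fold for 38.

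The mean was higher in CREB-H livers for 32 of the 49 genes and lower for 17, while 46.3% of all probe sets had a higher mean. With 1 probe set per gene, 11264 of 22180 genes were higher, and 4485 of the 8552 whose mean signal was at least that of the dimmest lysosomal gene. In 8 genes (16.3%) every CREB-H array lay above every GFP array, and in 1 (2.04%) every CREB-H array lay below. Over all probe sets these shares were 5.23% and 7.1%. Among the same 8552 genes, 7.46% did not overlap upward and 7.26% downward. The 8 were Ctsb, Hexa, Idua, Sgsh, Neu1, Lamp1, Atp6v1c1 and M6pr, and the 1 was Atp6v1h. In an exact permutation test (two-sided) each of the 9 had p = 0.1, and 3 arrays a group cannot give a smaller one.

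The lean to higher means depended on the arrays. On the 4 arrays without Y-linked signal 36 of 49 were higher, with a median of 0.12, and between the 2 arrays with it 22 were higher and 27 lower, with a median of -0.06. Of the 49 genes, 16 had opposite signs in the full comparison and between the 2 arrays with Y-linked signal. The 5 X-linked lysosomal genes, Gla, Ids, Lamp2, Atp6ap1 and Atp6ap2, had differences from -0.06 to 0.11, none passed, and their groups overlapped.

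**Figure D2:**
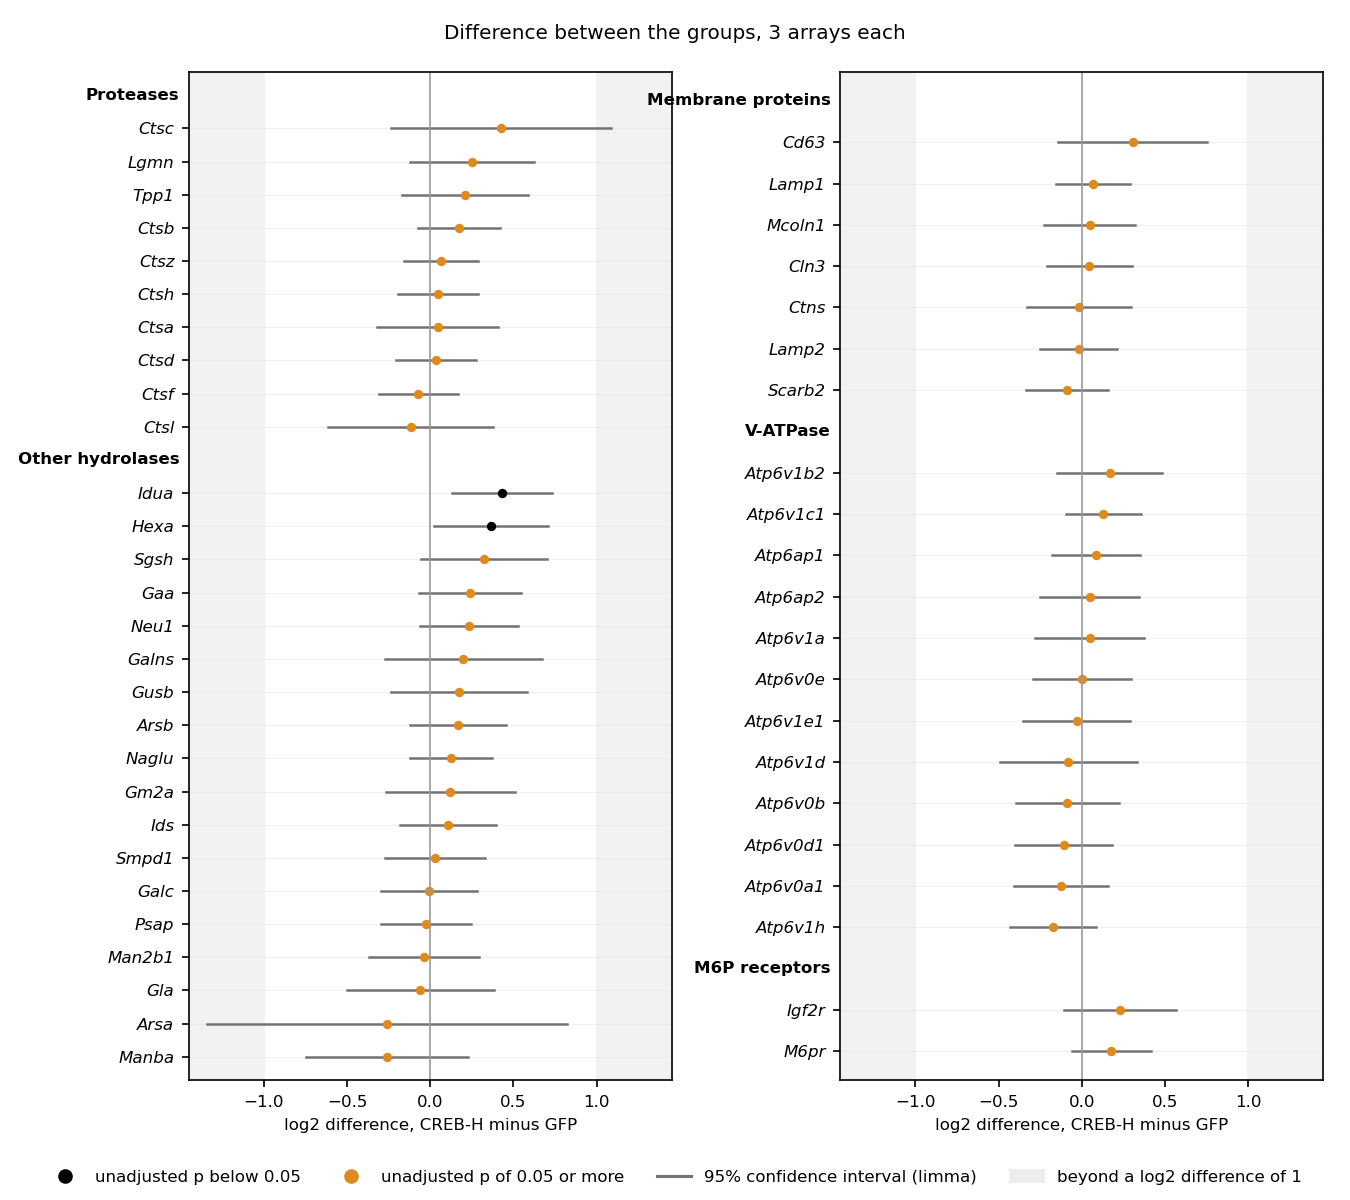
Log2 difference between CREB-H and GFP livers (x axis) for the 49 measured lysosomal genes, by class, with 95% confidence intervals from limma on 3 arrays per group; black points have an unadjusted p below 0.05. Every point lies between -0.26 and 0.43, and the intervals of Ctsc and Arsa alone reach a shaded area beyond 1.

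Hydrolases of glycans and lipids, with their activator proteins, were the largest class, with 18 measured genes. Of these 12 had a higher mean in CREB-H livers and 6 a lower one (median 0.12, from -0.26 to 0.43), and none passed. Idua (Entrez 15932), the iduronidase that trims dermatan and heparan sulfate, read 7.45, 7.56 and 7.77 on the CREB-H arrays, against 7.04, 7.20 and 7.26 on the GFP arrays. The lowest CREB-H array stood above the highest GFP array, so the groups did not overlap. The means were 7.59 ± 0.16 in CREB-H livers and 7.17 ± 0.12 in GFP livers (SD, n = 3 each). The log2 difference was 0.43 (SE 0.13) or 1.35-fold, with an unadjusted interval of 1.09 to 1.66 (limma adjusted p = 0.647). Idua had the lowest p of the lysosomal genes, and the interval does not allow for that choice. Hexa, the alpha subunit of the hexosaminidase that degrades GM2 ganglioside, read 9.56, 9.27 and 9.44 with CREB-H, against 9.20, 9.16 and 8.82 with GFP. Its groups did not overlap either, but GFP replicate 3 was the lowest array by far, and the log2 difference of 0.36 (SE 0.14, adjusted p = 0.715) became 0.24 without it and 0.23 with both replicate 3 arrays left out.

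Neither of these promoters carries an E-box in its window. The last 100 bases before their starts, given because Idua and Hexa had the lowest p of the lysosomal genes, lie at chr5:108660231-108660330 and chr9:59539440-59539539 of GRCm38.p6, both on the plus strand, and hold no capitals for that reason.
Idua: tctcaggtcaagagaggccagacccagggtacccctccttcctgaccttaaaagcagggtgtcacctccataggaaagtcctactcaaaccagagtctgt
Hexa: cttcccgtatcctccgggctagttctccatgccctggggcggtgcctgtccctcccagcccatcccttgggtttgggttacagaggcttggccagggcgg

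Sgsh, the sulfamidase of heparan sulfate, read 6.31, 6.15 and 6.34 in CREB-H livers, against 5.62, 6.07 and 6.14 in GFP livers. The groups were separated by a narrow margin, and GFP replicate 1 was far below the rest. The log2 difference was 0.32 (SE 0.16), and 0.16 without that array. Neu1, the sialidase that works in a complex with the Ctsa product, read 7.63, 7.59 and 7.52 in CREB-H livers, against 7.45, 7.13 and 7.46 in GFP livers. Here GFP replicate 2 was the low one, and the log2 difference of 0.23 (SE 0.12) was 0.12 without it.

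Gaa, which breaks down lysosomal glycogen, read 8.89, 8.80 and 9.08 with CREB-H, against 8.59, 8.60 and 8.86 with GFP. In both groups replicate 3 was the highest, the groups overlapped there, and the log2 difference was 0.24 (SE 0.13). Arsb, a sulfatase of dermatan sulfate, read 7.88, 8.01 and 7.86 with CREB-H, against 7.75, 7.58 and 7.91 with GFP. The groups overlapped through GFP replicate 3, and the difference was 0.17 (SE 0.12) in this probe set and 0.19 (SE 0.13) in a further one. It was 0.085 without GFP replicate 2 and 0.28 on the 4 arrays without Y-linked signal.

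Arsa and Manba had the lowest log2 differences of the class. Arsa, which removes sulfate from sulfatide, read 6.60, 6.55 and 7.09 in CREB-H livers, against 6.48, 6.42 and 8.12 in GFP livers. Replicate 3 was the highest array of each group, and GFP replicate 3 stood far above all others. Its log2 difference of -0.26 (SE 0.45) turned to 0.30 without GFP replicate 3, was -0.55 without GFP replicate 2, and turned to 0.12 on the 4 arrays without Y-linked signal. Manba, the beta-mannosidase that cleaves the last mannose of N-glycan cores, read 6.94, 7.01 and 6.92 in CREB-H livers, against 6.78, 7.28 and 7.60 in GFP livers. The CREB-H arrays lay close together inside the range of the GFP arrays, and the log2 difference was -0.26 (SE 0.20), or -0.07 without GFP replicate 3. It was -0.48 without GFP replicate 1 and -0.06 on the 4 arrays without Y-linked signal.

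The other 10 genes of the class had log2 differences between -0.06 and 0.20, and their groups overlapped. Galns, Ids, Naglu and Gusb, which act on glycosaminoglycans, had 0.20, 0.11, 0.13 and 0.17. Gla and Galc, which remove galactose from glycolipids, had -0.06 and -0.01, and the sphingomyelinase Smpd1 had 0.03, with 0.08 in a further probe set. Psap, the precursor of the saposins, had -0.03, and Gm2a, the activator that presents GM2 ganglioside to hexosaminidase, 0.12. The alpha-mannosidase Man2b1 had -0.04.

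**Figure D3:**
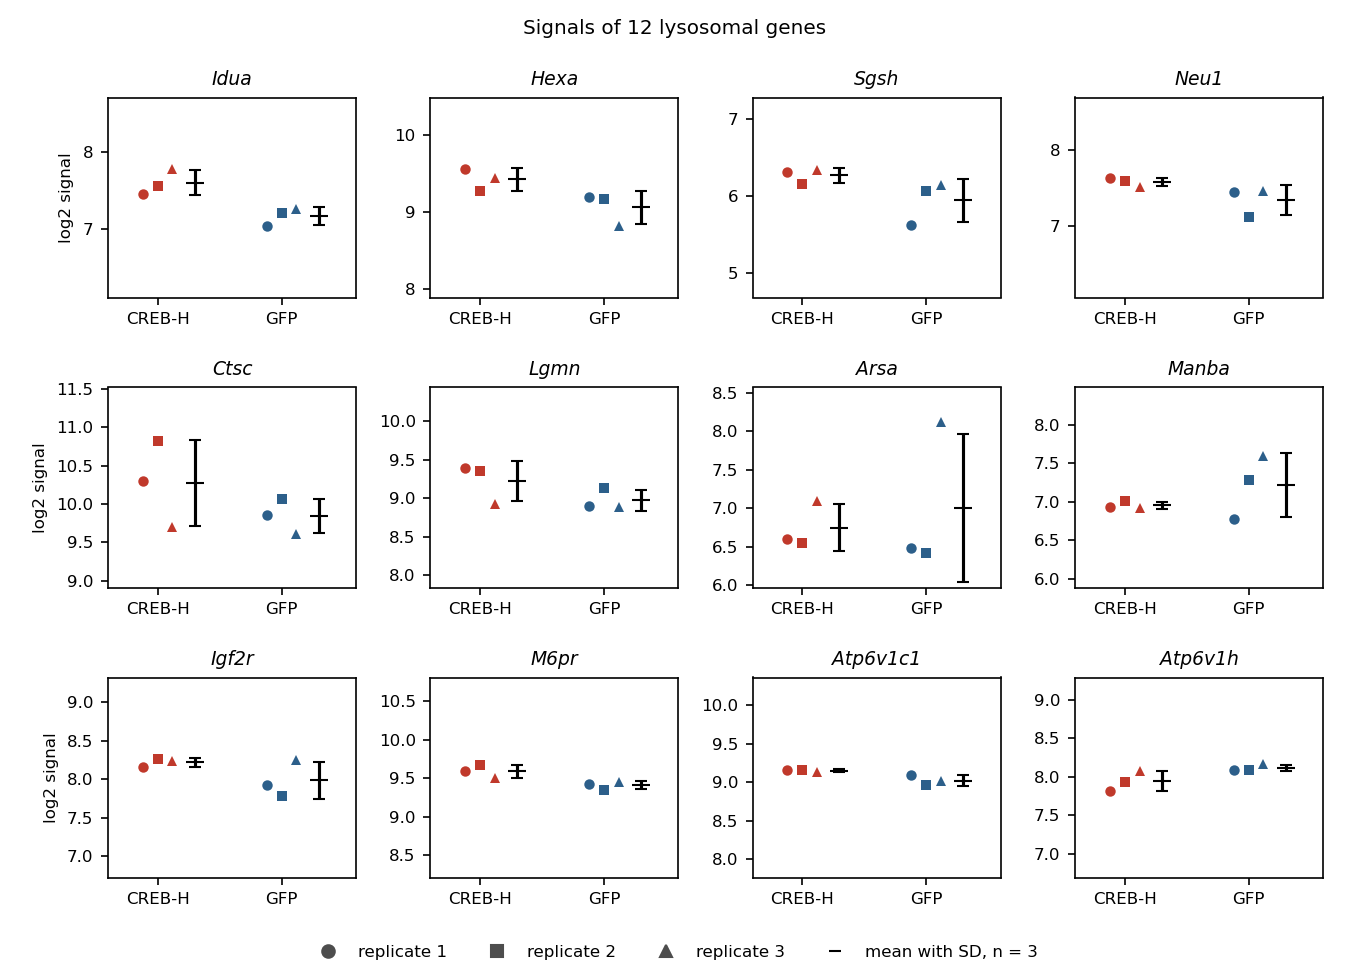
Log2 signal (y axis, with a range of equal height in every panel) on each array for 12 lysosomal genes in CREB-H and GFP livers, with the mean and SD of 3 arrays beside the points. Idua, Hexa, Sgsh, Neu1, M6pr and Atp6v1c1 are separated upward and Atp6v1h downward. GFP replicate 3 widens the spread of Arsa, and the CREB-H arrays of Ctsc lie far apart.

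Among the 10 lysosomal proteases, 8 had a higher mean in CREB-H livers and 2 a lower one, with a median log2 difference of 0.06 and a range from -0.12 to 0.43; none passed. Ctsb, the cysteine protease cathepsin B, was the 1 protease whose groups did not overlap. It read 12.49, 12.55 and 12.48 with CREB-H, against 12.25, 12.46 and 12.29 with GFP. The log2 difference was 0.17 (SE 0.10), and GFP replicate 2 lay just under the lowest CREB-H array.

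Ctsc, a dipeptidyl peptidase that activates the granule proteases of immune cells, had the widest range of the class. It read 10.30, 10.81 and 9.71 in CREB-H livers, against 9.86, 10.06 and 9.62 in GFP livers. Replicate 2 was the highest and replicate 3 the lowest of each group, and the groups overlapped. The log2 difference of 0.43 (SE 0.28) became 0.15 when CREB-H replicate 2 was left out and 0.71 when CREB-H replicate 3 was. Lgmn, which cleaves after asparagine and processes other cathepsins, read 9.39, 9.36 and 8.93 with CREB-H, against 8.90, 9.13 and 8.89 with GFP. CREB-H replicate 3 lay among the GFP arrays, and the difference was 0.25 (SE 0.16), or 0.40 without it.

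Tpp1, the tripeptidyl peptidase, read 10.84, 10.92 and 11.25 with CREB-H, against 10.60, 10.77 and 11.01 with GFP. Replicate 3 was the highest of each group, the groups overlapped, and the log2 difference was 0.21 (SE 0.16). It was 0.087 without CREB-H replicate 3, 0.11 when GFP replicate 1 was left out and 0.32 when GFP replicate 3 was. The aspartic protease gene Ctsd and the cysteine protease genes Ctsh and Ctsz had 0.03, 0.04 and 0.07, each with an SE of 0.09 to 0.10, and Ctsa, the carboxypeptidase that protects Neu1, had 0.04. Ctsf and Ctsl had -0.07 and -0.12; Ctsl read 10.82, 10.79 and 11.25 with CREB-H, against 11.33, 11.20 and 10.69 with GFP. Its replicate 3 arrays lay on the side of the other group.

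**Figure D4:**
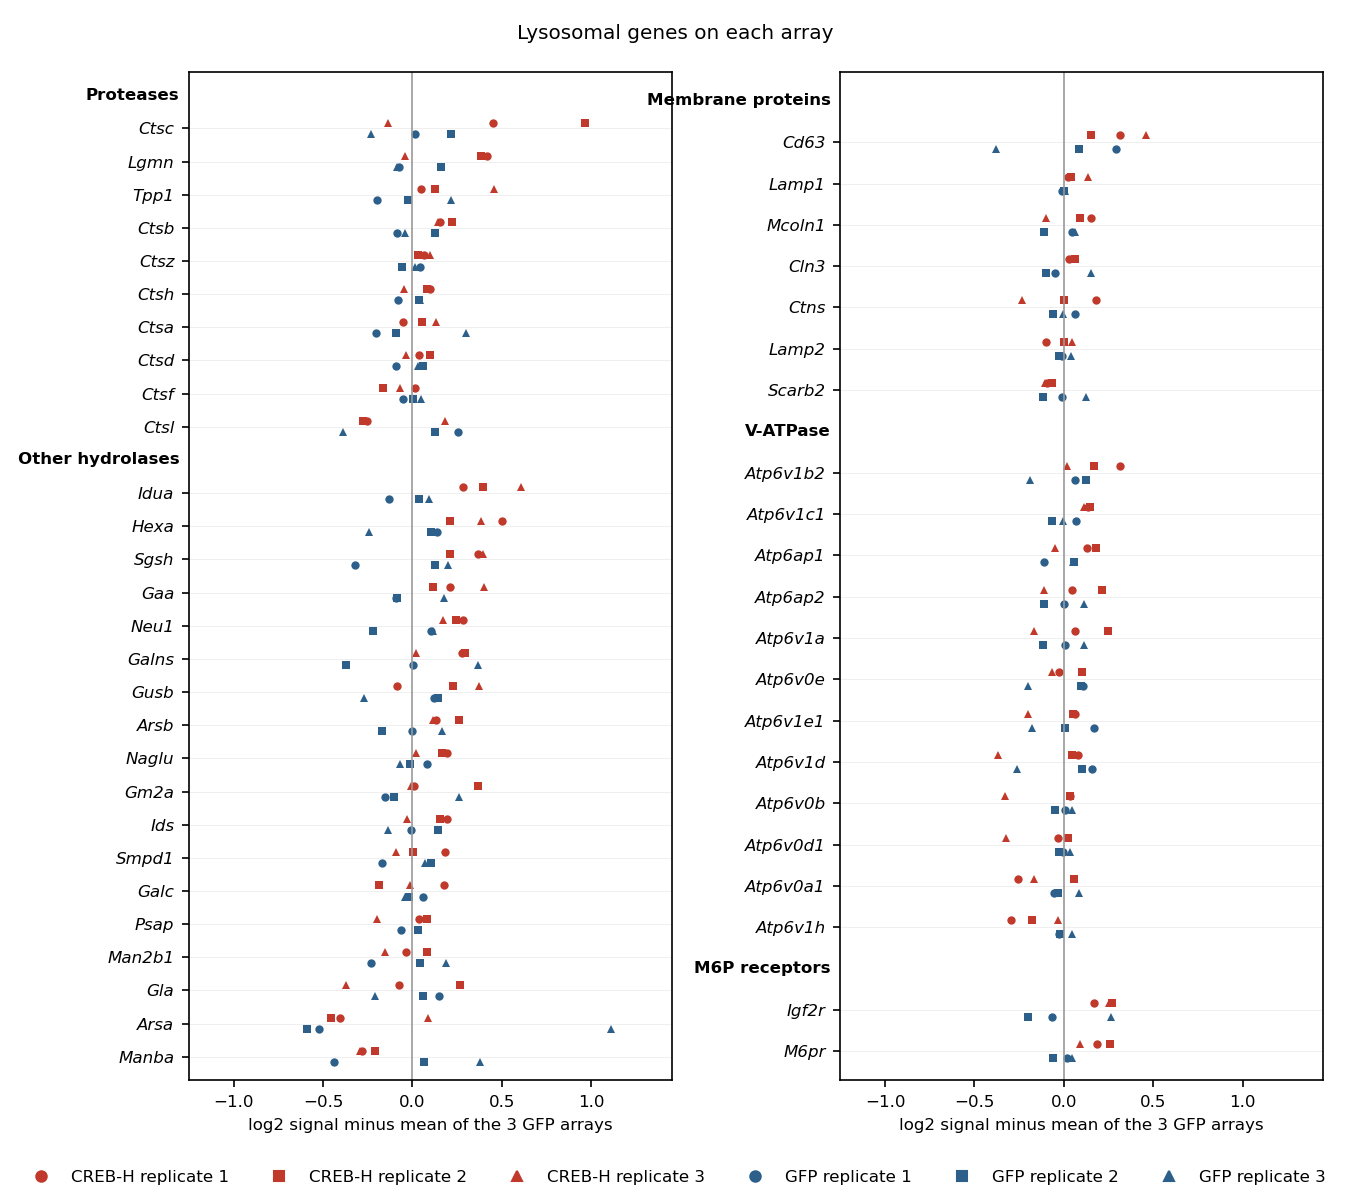
Log2 signal of each of the 49 lysosomal genes on each array relative to the mean of the 3 GFP arrays of that gene (x axis), by class. Red points are CREB-H arrays and blue points GFP arrays, marker shapes give the replicate, and in most genes the colours interleave.

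The V-ATPase subunits were split evenly and lay close to no difference. Of 12 measured subunits 6 had a higher and 6 a lower mean in CREB-H livers, with log2 differences from -0.17 to 0.17 and a median of -0.01, and none passed. All 12 confidence intervals lay within 1.5-fold in either direction, from 0.711 to 1.40 as ratios of CREB-H to GFP. Atp6v1h, a regulatory subunit of V1, read 7.82, 7.94 and 8.08 with CREB-H, against 8.09, 8.09 and 8.16 with GFP. It was the 1 lysosomal gene with all CREB-H arrays below all GFP arrays, with CREB-H replicate 3 just under them, and its log2 difference was -0.17 (SE 0.11, adjusted p = 0.827), or -0.11 without CREB-H replicate 1.

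Atp6v1c1, which links V1 to V0, read 9.15, 9.16 and 9.13 with CREB-H, against 9.09, 8.96 and 9.01 with GFP. Its groups did not overlap, at a log2 difference of 0.13 (SE 0.09). Atp6v1b2, a subunit of the ATP-splitting head, read 9.03, 8.88 and 8.73 with CREB-H, against 8.77, 8.84 and 8.52 with GFP. These groups overlapped, and the difference was 0.17 (SE 0.13), while its further probe set gave -0.0047 (SE 0.10). The first value was 0.073 without GFP replicate 3 and 0.093 without CREB-H replicate 1.

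Within V0, Atp6v0a1, the subunit that lines the proton path, read 8.24, 8.55 and 8.33 in CREB-H livers, against 8.44, 8.47 and 8.58 in GFP livers. The log2 difference was -0.12 (SE 0.12), with CREB-H replicate 2 inside the GFP range. It was -0.21 without that array, -0.057 without CREB-H replicate 1, -0.08 without GFP replicate 3 and -0.057 on the 4 arrays without Y-linked signal. Atp6v0b, Atp6v0d1 and Atp6v0e, further subunits of V0, had -0.09, -0.11 and 0.00. For Atp6v0b and Atp6v0d1 only CREB-H replicate 3 was low, at 9.21 and 8.92, and the other 5 arrays spanned 9.49 to 9.59 and 9.21 to 9.28. The V1 subunits Atp6v1a, Atp6v1d and Atp6v1e1 had 0.05, -0.08 and -0.03, and the accessory proteins Atp6ap1 and Atp6ap2 had 0.09 and 0.05. Leaving out CREB-H replicate 3 gave 9 of 12 subunits with a higher mean (median 0.06), while leaving out CREB-H replicate 2 gave 3 of 12 (median -0.06).

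Of the 7 lysosomal membrane protein genes 4 had a higher mean in CREB-H livers and 3 a lower one (median 0.05, from -0.09 to 0.31), and none passed. Lamp1, a heavily glycosylated coat protein of the membrane, read 11.35, 11.36 and 11.46 with CREB-H, against 11.31, 11.33 and 11.33 with GFP. All 3 CREB-H arrays stood above the GFP arrays, yet the log2 difference was only 0.07 (SE 0.09), a ratio of 1.05 with an interval of 0.898 to 1.22. It was 0.031 without CREB-H replicate 3 and 0.035 on the 4 arrays without Y-linked signal. Cd63, a tetraspanin of late endosomes, read 7.23, 7.07 and 7.38 with CREB-H, against 7.21, 7.01 and 6.54 with GFP. The low GFP replicate 3 set most of its difference of 0.31 (SE 0.19), which was 0.12 without that array and 0.043 on the 4 arrays without Y-linked signal.

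Scarb2, which carries glucocerebrosidase to the lysosome, read 10.10, 10.13 and 10.09 in CREB-H livers, against 10.19, 10.08 and 10.32 in GFP livers. The groups overlapped, and the log2 difference was -0.09 (SE 0.10). It was -0.026 without GFP replicate 3, -0.15 without GFP replicate 2 and -0.018 on the 4 arrays without Y-linked signal. The calcium channel gene Mcoln1, the cystine exporter gene Ctns, Lamp2 and Cln3 had differences of 0.05, -0.02, -0.02 and 0.05.

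Both mannose 6-phosphate receptors had higher means in CREB-H livers, and neither passed. M6pr, the smaller, cation-dependent receptor, read 9.59, 9.67 and 9.50 with CREB-H, against 9.43, 9.35 and 9.45 with GFP. Its groups did not overlap, and the log2 difference was 0.18 (SE 0.10, adjusted p = 0.812). Igf2r, the large receptor that also takes up IGF2, read 8.16, 8.26 and 8.24 with CREB-H, against 7.93, 7.79 and 8.26 with GFP. GFP replicate 3 was level with the CREB-H arrays; the log2 difference of 0.23 (SE 0.14) was 0.36 without it, 0.13 without GFP replicate 2 and 0.35 on the 4 arrays without Y-linked signal.

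The differences were also set out by promoter motif. The 16 measured genes with TCACGTG had a median log2 difference of 0.05 (12 higher, 4 lower, from -0.26 to 0.32), and the 26 with a window but without it had 0.04 (14 higher, 12 lower, from -0.26 to 0.43). The 9 with the palindrome had a median of 0.04 (7 higher, 2 lower), from -0.11 for Atp6v0d1 to 0.23 for Igf2r. The 33 with a window but without the palindrome had 0.07 (19 higher, 14 lower). For the E-box the medians were 0.045 in 18 genes with it (12 higher, 6 lower) and 0.057 in 24 without (14 higher, 10 lower). Gusb, the 1 gene with the CRE palindrome, had 0.17 (SE 0.17). The splits were not tested.

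Other genes of the pathway, listed by role, gave no call either. Of 26 measured further lysosomal genes (32 listed) none passed; 17 had a higher and 9 a lower mean, with a median of 0.03. Lipa, the acid lipase that releases cholesterol and fatty acids from lipoprotein lipids, had the lowest p, with 11.82, 11.60 and 12.10 in CREB-H livers against 11.25, 11.38 and 11.40 in GFP livers. Its groups did not overlap, and its log2 difference of 0.49 (SE 0.15, adjusted p = 0.647) was larger than that of any of the 49. Npc1, which exports the released cholesterol, followed with 0.29 (SE 0.12).

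Of 13 further V-ATPase genes none passed, and 10 had a higher mean (median 0.07). Tcirg1, the a3 subunit known from osteoclasts and macrophages, read 6.99, 7.14 and 6.83 with CREB-H, against 6.58, 6.55 and 6.68 with GFP. The groups did not overlap, at a log2 difference of 0.38 (SE 0.12, adjusted p = 0.647), while Atp6v0a4 had 0.25 (SE 0.14). Atp6v0a4 was dim, with means of 3.92 in CREB-H and 3.67 in GFP livers, where the lower quartiles of the arrays were 3.75 to 3.80. In the 15 genes of enzyme tagging and sorting, 7 had a higher and 8 a lower mean (median -0.01) and none passed; Gga2, an adaptor of the receptors, had 0.24 (SE 0.11) and Gnptab, the enzyme that makes the mannose 6-phosphate tag, 0.25 (SE 0.12). Among 19 genes of transcriptional and nutrient control none passed (median 0.03), with Mtor at 0.25 (SE 0.15) and Foxo3 at 0.23 (SE 0.15). Mtor read 8.90, 8.80 and 9.29 with CREB-H, against 8.82, 8.68 and 8.74 with GFP, and CREB-H replicate 3 stood well above the rest. Tfeb, named for its role, read 5.31, 5.23 and 5.41 in CREB-H livers, against 5.41, 5.08 and 5.21 in GFP livers, a log2 difference of 0.08 (SE 0.12).

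Hepatocyte markers checked the labelled tissue: Alb, the highest signal on every array, read 13.76 to 13.87 on all 6. The 7 hepatocyte markers had a median log2 difference of -0.02, from -0.21 for Asgr1 to 0.12 for Tat. Some were less steady than Alb: Tat was lowest on GFP replicate 3, at 12.87, and Serpina1a ran from 9.01 to 9.82. Markers of Kupffer cells varied far more between the arrays. Relative to the mean of the 6 arrays for each gene, the median of the 7 Kupffer cell markers was 0.42, 0.63 and -0.40 on CREB-H replicates 1 to 3, against -0.25, 0.18 and -0.69 on GFP replicates 1 to 3. Within each group replicate 2 was the highest and replicate 3 the lowest. The medians of the endothelial and of the stellate cell markers had the same order in both groups, within -0.22 to 0.23. Those of macrophage and monocyte, lymphocyte, neutrophil and hepatocyte markers did not. All 7 Kupffer cell markers had a higher mean in CREB-H livers (median log2 difference 0.40). So had 9 of 11 macrophage and monocyte markers (median 0.33), and none of the 18 passed. Means were also higher for 4 of 5 endothelial cell markers (median 0.17) and 4 of 5 stellate cell markers (median 0.21), and none passed. The summed linear signal of the 7 Kupffer cell markers ranged from 2428 to 4649 in CREB-H livers and from 1829 to 3678 in GFP livers. Fewer cells of a type and less RNA per cell cannot be told apart in whole liver.

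Ctsc, given above, had replicate 2 highest and replicate 3 lowest in each group, as did the medians of Kupffer, endothelial and stellate cell markers. Lgmn had replicate 3 low in CREB-H livers. Tcirg1 had replicate 3 lowest in CREB-H livers but highest in GFP livers. Idua had its highest CREB-H value on replicate 3, the CREB-H array on which the Kupffer cell markers were lowest. The part of Kupffer, endothelial or stellate cells in the differences of Ctsc, Lgmn, Tcirg1 and Idua was not tested. On the same scale the medians of the 5 lysosomal classes stayed between -0.23 and 0.16 on every array, and that of the 49 genes between -0.05 and 0.08.

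**Figure D5:**
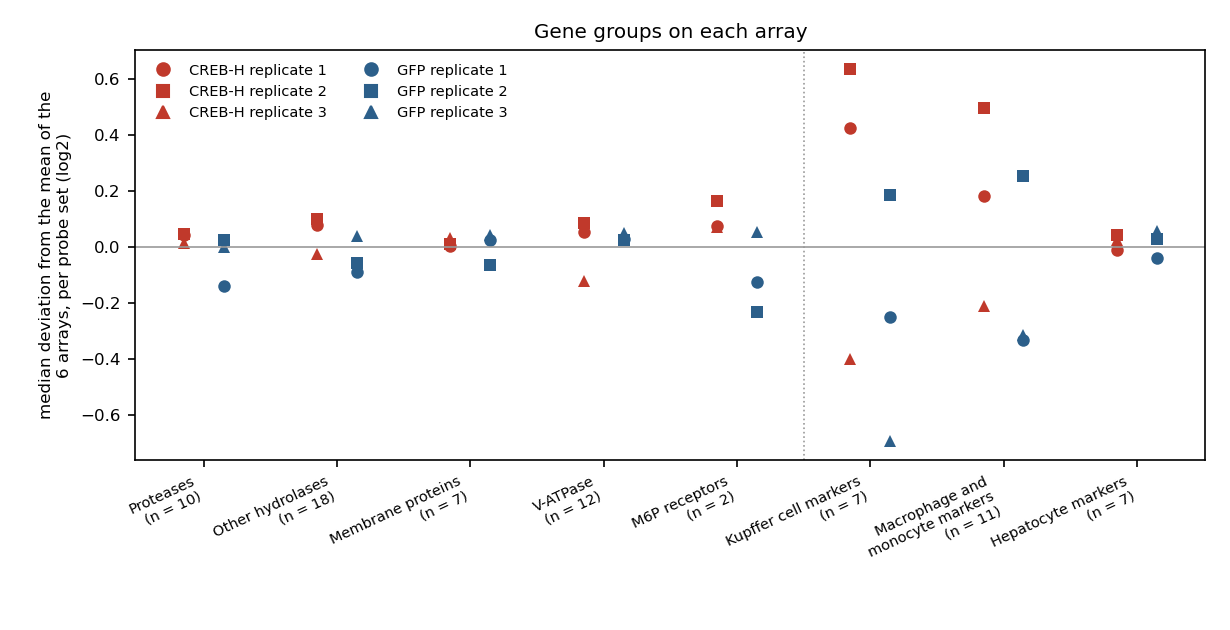
Median deviation (y axis, log2) of the genes of each group from their own mean over the 6 arrays, for 5 lysosomal classes and for markers of Kupffer cells, macrophages and monocytes, and hepatocytes; red points are CREB-H arrays and blue points GFP arrays. The lysosomal classes lie between -0.23 and 0.16, while the Kupffer cell markers run from -0.69 to 0.63.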

How the data were processed

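Total RNA from 6 mouse livers was measured on single-colour arrays. The deposited values are log2 signals, for which the submitters' processing notes name the authors' tool, the Transcriptome Analysis Console. Its version, the summarisation, the normalization between arrays and any filters are not stated there. That the scale is log2 was read from the values, 1.42 to 13.9. Detection calls and scan batches were not analysed here. Gene symbols came from GEO's platform annotation: 23521 of 41345 probe sets had 1 symbol, 1814 had several and 16010 were not listed. All 49 symbols matched assembly GRCm38.p6 by Entrez ID.

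The main model was limma 3.58.1 under R 4.3.3 (lmFit, then eBayes, two-sided, with group as the single term) on unfiltered log2 values, and p-values were adjusted by Benjamini-Hochberg over all 41345 probe sets; no p was adjusted over the lysosomal genes alone. The model was tested on simulated data. Single values had an exact permutation test over 6 arrays. Values on every array are given for the 4 proteases, 6 hydrolases, 3 membrane proteins and 4 V-ATPase subunits with the lowest p, both receptors, the 3 largest differences each way, the 3 largest SDs and genes whose probe sets disagreed in sign. From each other list the 2 genes with the lowest p are named. The array values of Ctsl, Atp6v0b, Atp6v0d1, Lipa, Tcirg1, Mtor and Tfeb were added after they were seen. The genes, lists and tests were chosen with earlier results of these data known. Alternatives were other normalizations, filters, variance models, weights for arrays, a replicate block, a Y-linked term (the 3 genes averaging above 5), subsets of arrays and other probe set rules.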

Additional observations from a re-analysis of the deposited data

How the results depend on the processing

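No lysosomal gene passed under any alternative that gave a test: quantile normalization, median centring, filters that removed the dimmest 25% or 50%, limma-trend (plain or robust), weights for arrays, the replicate block, the term for Y-linked signal, the 4 arrays without it, leaving out any 1 array, testing 1 probe set per gene, and averaging probe sets by gene. The lowest adjusted p of a lysosomal gene over these was 0.440, for Idua with the term for Y-linked signal. The count over all probe sets, 2, was 0 with the replicate block, 0 on the 4 arrays without Y-linked signal, 1 with a term for that signal, 3 with 1 probe set per gene, and 0 to 2 with 1 array left out (2 without CREB-H replicate 2, 0 without any other). Replicate numbers were not treated as pairs: the correlations of deviations were 0.08, 0.13 and 0.33 for numbers 1, 2 and 3, CREB-H replicates 1 and 2 and GFP replicate 1 correlated best with another number, and replicate 3 shared Y-linked signal. The median over the lysosomal genes, 0.05, was 0.12 on the 4 arrays without Y-linked signal, -0.055 between the 2 arrays with it, and 0.04 to 0.09 with 1 array left out; the cause was not tested. Of the lysosomal genes whose array values were given by the naming rule, those that changed sign did so on subsets of arrays: Arsa was 0.12 on the 4 arrays without Y-linked signal and -0.55 to 0.30 with 1 array left out, and between the 2 arrays with Y-linked signal Arsb was -0.055 and Igf2r -0.012. Quantile normalization changed the sign of 3 of the 49 genes and median centring that of 2, none over 0.018 in size as reported. Fits that leave out replicate 3 of 1 group keep Y-linked signal in the other group alone. Detection above background was not analysed here.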
